A study of Drosophila melanogaster with 10 samples.

Results

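The cytosolic ribosome is built from a small and a large subunit, each an RNA core wrapped by ribosomal proteins that are made in near-equal amounts, and it translates every messenger RNA that leaves the nucleus. In Drosophila melanogaster the loss of 1 copy of many of these genes gives the Minute phenotype of slow growth and thin bristles, and some of the proteins have a second gene whose use is best known from the germ line. Neurons need ribosomes throughout life but do not divide. The genes described here were all those whose only gene symbol in the platform annotation was that of a cytosolic ribosomal protein (names starting with RpL or RpS followed by a digit or P), which gave 41 of 11982 measured genes, each represented by its probe set with the highest mean. They fall into 29 core genes and 12 paralogue copies, the latter being the second genes and the genes named "-like". The gene table of the fly holds 92 symbols of this form, and the 51 others were not analysed here.

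The values came from 10 arrays of neurons sorted by fluorescence from cultures of dissociated early gastrula embryos, whose parents were 2 weeks old. Cultures were kept at 25 °C and harvested at 5 to 7 days per the source names and design text, while the growth protocol gives a range that ends at 8 days. In the 5 Cha arrays, the strain was 7.4 kb Cha-Gal:UAS-GFP, in which regulatory DNA of the choline acetyltransferase gene drives Gal4 and thereby green fluorescent protein. In the 5 Gad arrays, the strain was 2.1 kb Gad1(s)-RFP, in which regulatory DNA of the glutamate decarboxylase gene drives a red fluorescent protein. Both groups were thus defined by a transgene fragment and not by the transmitter gene itself, and no array of unsorted cells was used here. Nothing in the labels ties the replicates to separate cultures, so a p-value here reflects the scatter among these arrays, part of which may be technical. In sorted bulk samples, fewer cells of a type and less RNA per cell cannot be told apart.

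The authors' RMA values are on the log2 scale, and RMA gives all arrays nearly the same distribution. Array medians lay between 5.70 and 5.78 and array maxima between 14.67 and 15.06. Each array's percentile 40 (4.75 to 4.84) served as its dim level, and a gene below it on more than 5 arrays is called dim. All 9 measured neuronal markers were above that level on all 10 arrays, and their mean was 9.68 to 10.62 in Cha and 8.61 to 9.75 in Gad. All 9 had higher means in Cha, and 5 of them passed the threshold (defined below) toward Cha, with a median difference of 0.77. Markers of neuroblasts and dividing cells were lower in every Cha array (mean 7.43 to 8.81) than in any Gad array (9.05 to 9.57), and 5 of the 9 measured passed the threshold toward Gad. The means of glial markers (7.68 to 8.46 against 8.56 to 8.86) and fat body markers (5.52 to 6.36 against 7.40 to 9.74) did not overlap between the groups either. Of 4 fat body markers, 3 passed toward Gad. Fbp1 differed by -0.05, and Lsp2 ran from 4.67 to 12.32 within Gad. All 4 measured muscle markers passed toward Gad. Hemocyte markers went both ways, with PPO1 (3.39) and PPO2 (1.73) past the threshold toward Cha and srp (-1.73) toward Gad, of 8 measured.

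The core ribosomal protein genes were among the brightest genes on every array. Their means over the 10 arrays ran from 12.54 for RpL29 to 14.51 for RpL15, which placed all 29 above the percentile 98.8 of the measured genes. RpL15, RpL23 of the large subunit, RpL41, which encodes a very short protein, and RpS21 of the small subunit were the 4 highest. RpL15 stood at 14.53, 14.48, 14.65, 14.34 and 14.53 on Cha arrays 1 to 5 and at 14.71, 14.42, 14.55, 14.42 and 14.49 on Gad arrays 1 to 5, so both groups covered almost the same span. The 4 genes with the lowest means were all paralogue copies: RpL10Aa (3.94), RpS28-like, RpS28a and RpL37-2. RpL10Aa and RpS28-like were dim on all 10 arrays, and the other 39 genes were above the dim level on all 10.

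**Figure D1:**
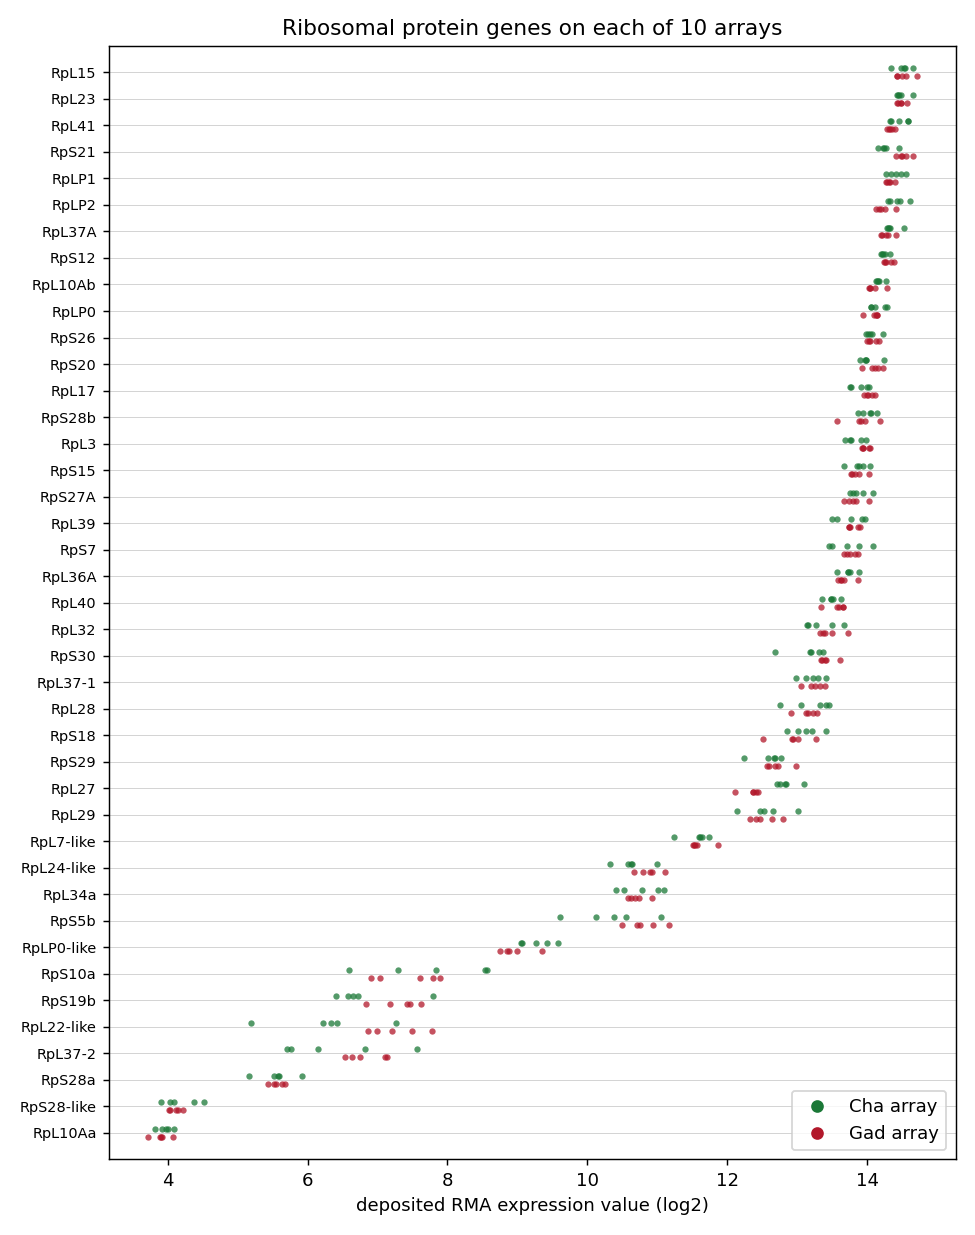
Deposited RMA value (log2, horizontal axis) of each of the 41 ribosomal protein genes (rows, ordered by mean) on the 5 Cha arrays (green points) and the 5 Gad arrays (red points). The 29 core genes sit above 12 in both colours, and the paralogue copies spread from 3.72 to 11.87.

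The comparison of Cha with Gad asks whether cells marked through cholinergic and GABAergic regulatory DNA differ in these transcripts. Of the 41 genes, 1 passed the threshold (limma, Benjamini-Hochberg adjusted p under 0.05 over all genes), with the higher level in Cha, and 0 passed toward Gad. Over all 11982 genes, 18.5% passed, 8.21% with the higher level in Cha and 10.2% in Gad. At an unadjusted p under 0.05, 3 of the 41 passed, where 31.8% of all genes did. The median difference (Cha minus Gad) was -0.01 on the log2 scale against 0.04 over all genes, with 20 genes positive and 21 negative. The 5 Cha and 5 Gad values did not overlap for 1 of the 41 genes, where 13.5% of all genes did not.

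The size of the differences was bounded closely in the core genes. For 28 of the 29, the 95% interval of the difference lay within 1.5-fold in either direction, and for all 41 genes this held for 34, where 56.5% of all genes met it. Apart from RpL27, the core differences ran from -0.26 to 0.20, and the widest of their interval bounds corresponded to 1.47-fold. The median size of a core difference was 0.07, and 18 core genes differed by less than 0.1. Spread between replicate arrays was small as well, with a median SD of 0.13 in Cha and 0.11 in Gad for core genes against 0.25 and 0.17 over all genes. The median level over all genes was 7.42, against 13.90 for the core genes.

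Other bright genes differed more widely on these arrays. The 115 other genes with means at or above that of the dimmest core gene had a median difference size of 0.28, and 36 of them passed the threshold, 17 toward Cha and 19 toward Gad, or 31.3%. Most of these were less bright than the core genes, with a median level of 13.01 against 13.90. Of the 9 other genes at or above the core median, 1 passed, and their median difference size was 0.14 against 0.08 for the 15 core genes there. Scanner files, which could show saturation of bright probes, were not used here.

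**Figure D2:**
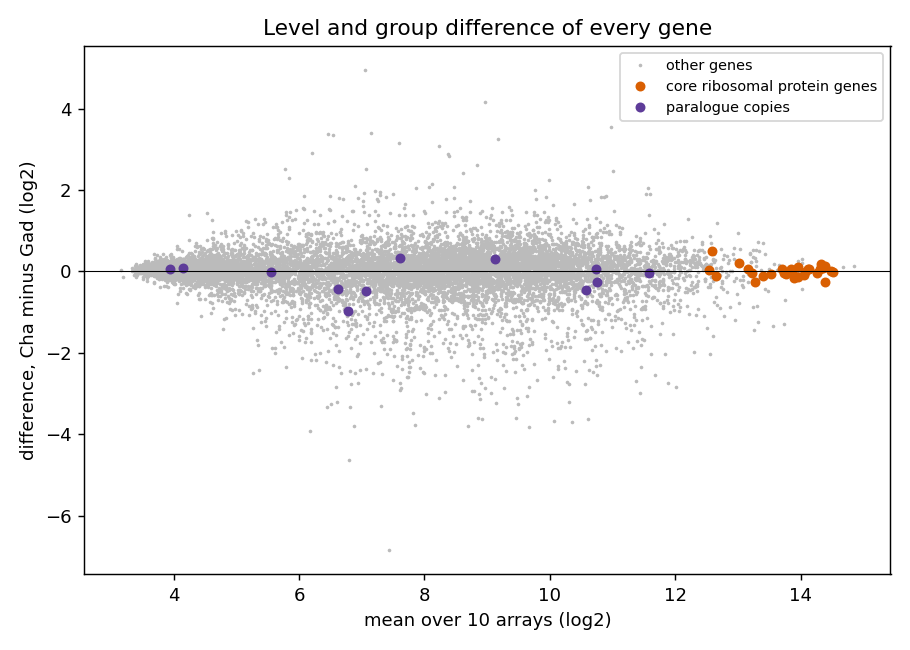
Difference between groups (Cha minus Gad, log2, vertical axis) against the mean over 10 arrays (log2, horizontal axis) for all 11982 genes (grey), the 29 core genes (orange) and the 12 paralogue copies (purple). The core genes form a tight cluster near 0 at the bright end, where other genes are few: 115 lie at or above the dimmest core gene and 9 at or above the core median.

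RpL27, a large subunit protein, was the gene that passed. Its values were 12.74, 12.84, 12.70, 13.09 and 12.83 on Cha arrays 1 to 5 and 12.44, 12.10, 12.41, 12.37 and 12.37 on Gad arrays 1 to 5. Every Cha array was above every Gad array. The means were 12.84 ± 0.15 (SD, n = 5) and 12.34 ± 0.14, a difference of 0.50 (SE 0.10, 95% interval 0.28 to 0.73) or 1.42-fold, with a limma adjusted p of 0.00762. It had 1 probe set, so no second probe set could be compared. No other core gene differed by as much, and the next largest differences toward Cha were those of RpS18 (0.20) and RpLP2 (0.19).

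RpS21, whose protein sits on the small subunit, had the second smallest p of the core genes. It stood at 14.26, 14.23, 14.46, 14.22 and 14.15 on Cha arrays 1 to 5 and at 14.66, 14.55, 14.49, 14.41 and 14.48 on Gad arrays 1 to 5. Cha array 3 reached into the Gad range, and the other 4 Cha arrays lay below it. Its difference was -0.25 (interval -0.45 to -0.06) and missed the threshold (limma adjusted p = 0.0692). Leaving out single arrays gave differences from -0.30 to -0.22 and adjusted p from 0.0383 to 0.1425. Among those fits it passed only without Cha replicate 3 (-0.30, 0.0383). That array held its highest Cha value, so leaving it out had to move the difference toward Gad. RpS21 also passed with a second quantile normalization (-0.29, 0.0306) and with loess (-0.32, 0.0341), and in no other alternative.

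The stalk of the large subunit recruits the elongation factors and is made of RpLP0 with RpLP1 and RpLP2. All 3 had slightly higher means in Cha, by 0.06 for RpLP0 (14.15 ± 0.11 against 14.09 ± 0.08), 0.09 for RpLP1 (14.41 ± 0.12 against 14.31 ± 0.05) and 0.19 for RpLP2 (14.42 ± 0.13 against 14.23 ± 0.11). None passed the threshold (adjusted p = 0.693, 0.48 and 0.193), and the groups overlapped for each. RpL40, RpS27A and RpS30 are made as fusions to ubiquitin or a ubiquitin-like protein that is cut off. They differed by -0.07, 0.07 and -0.26 (adjusted p = 0.643, 0.684 and 0.192). For RpS30, Cha replicate 5 stood at 12.68 while the other 4 Cha arrays lay between 13.18 and 13.37.

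RpL32, long used under the name rp49 as a reference transcript in fly work, stood at 13.34 ± 0.23 in Cha and 13.46 ± 0.16 in Gad. The difference was -0.12 (interval -0.40 to 0.16, adjusted p = 0.565). RpS12, whose protein is required in flies for the removal of Minute cells by their neighbours, had one of the narrowest intervals, with 14.24 ± 0.05 against 14.29 ± 0.06 and a difference of -0.05 (-0.21 to 0.11). By subunit, the 18 core genes of the large subunit had a median difference of 0.04 and the 11 of the small subunit one of -0.04.

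**Figure D3:**
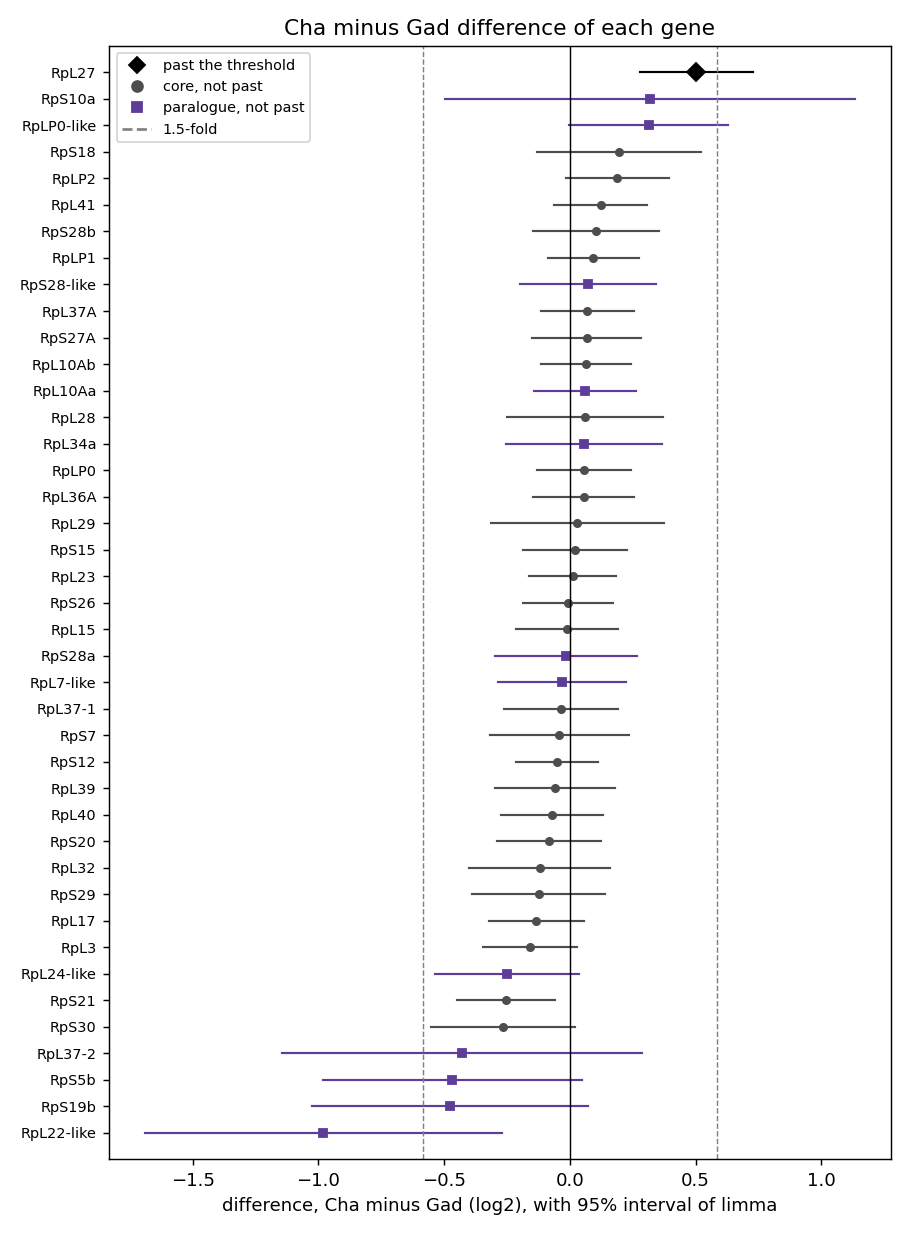
Difference of each of the 41 genes (Cha minus Gad, log2, horizontal axis) with its 95% limma interval. The diamond is RpL27, the gene past the threshold; circles are other core genes, squares are paralogue copies, and dashed lines mark 1.5-fold. Core intervals other than that of RpL27 stay inside the dashed lines, and the intervals of several paralogue copies are wider.

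Of the 12 paralogue copies, 0 passed the limma threshold, and 1 had an unadjusted p under 0.05. Their median difference size was 0.28, against 0.07 for the core genes, their median SD was 0.28 in Cha and 0.20 in Gad, and the interval stayed within 1.5-fold for 6 of the 12. Where an interval is wide, the arrays cannot show whether the groups differ.

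RpL22-like, a second form of RpL22 known in flies mainly from the germ line and the eye, had the largest difference of all 41 genes. Its values were 6.23, 6.33, 7.27, 6.43 and 5.20 on Cha arrays 1 to 5 and 7.78, 6.87, 7.21, 7.00 and 7.49 on Gad arrays 1 to 5. All Cha arrays but array 3 lay below all Gad arrays. The difference of -0.98 (interval -1.69 to -0.27), or 1.97-fold, missed the threshold with an adjusted p of 0.0571. Without Cha replicate 3 it was -1.22 (adjusted p = 0.0175), and over the fits that left out 1 array the adjusted p ran from 0.0175 to 0.124. Cha replicate 3 held the highest Cha value of RpL22-like, so leaving it out had to move the difference toward Gad.

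RpS19b and RpS5b, second copies of small subunit genes best known from the fly germ line, also had lower means in Cha without passing. RpS19b stood at 6.41, 6.72, 7.80, 6.64 and 6.57 on Cha arrays 1 to 5 and at 7.62, 7.47, 7.18, 6.84 and 7.42 on Gad arrays 1 to 5, so Cha array 3 was the highest of all 10 while the other 4 Cha arrays were the lowest. Its difference was -0.48 (interval -1.03 to 0.07, adjusted p = 0.22), and -0.72 without Cha replicate 3 (adjusted p = 0.0156). That array held its highest value, so leaving it out had to move the difference toward Gad. Over the fits that left out 1 array, the adjusted p ran from 0.0156 to 0.3635, and only that fit passed. RpS5b, at 9.61, 10.12, 11.05, 10.38 and 10.55 against 11.17, 10.75, 10.50, 10.71 and 10.93, differed by -0.47 (adjusted p = 0.201). It was among the brighter paralogue copies in both groups. RpS10a, known from the gonads, ran from 6.59 to 8.56 in Cha and from 6.90 to 7.89 in Gad, with a difference of 0.32 and an interval from -0.50 to 1.13 that spans 0.

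Markers of the germ line and of dividing cells were set beside these copies. Of 8 germ line markers measured, vas and osk were dim on all 10 arrays, bam and aub passed toward Cha (1.38 and 0.63) and piwi toward Gad (-1.32), and the mean of the 8 was 6.73 to 7.16 in Cha and 6.76 to 7.02 in Gad. The markers of neuroblasts and dividing cells were lower in every Cha array, as given above. The part of other cells in the values of RpL22-like, RpS19b and RpS5b was not tested.

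Other copies are related to factors that help assemble the ribosome in yeast and need not be part of it. RpL7-like, RpL24-like and RpLP0-like had means of 11.56, 10.63 and 9.28 in Cha and 11.60, 10.88 and 8.96 in Gad. Their differences were -0.03 (interval -0.29 to 0.22), -0.25 (-0.53 to 0.04) and 0.31 (-0.0021 to 0.63), and none passed. RpL34a, listed here as the other copy of RpL34b, stood at 10.76 ± 0.30 and 10.71 ± 0.14.

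**Figure D4:**
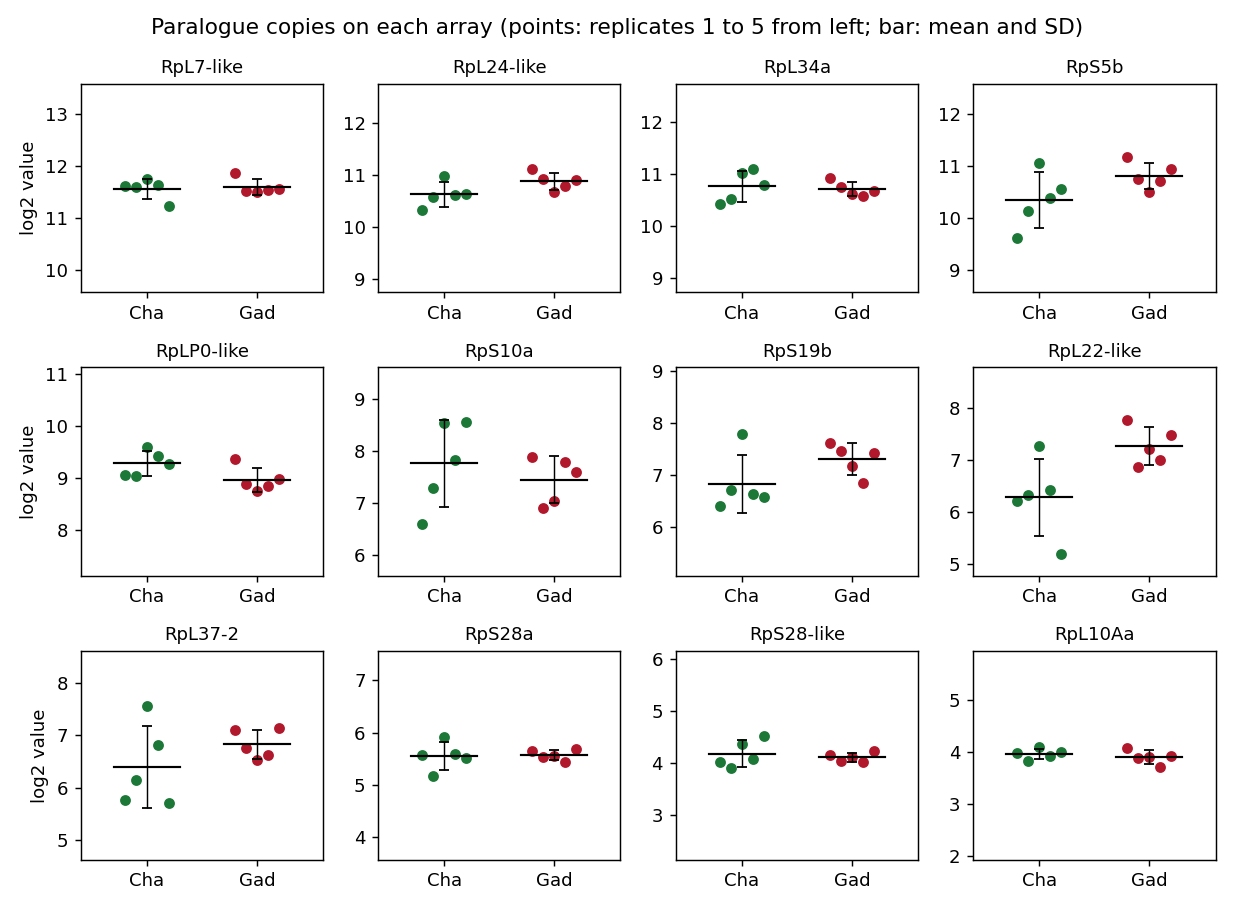
Values of the 12 paralogue copies on each array (log2, vertical axes of equal height), with points for replicates 1 to 5 from left to right and bars for the mean and SD of each group (n = 5). Cha replicate 3 is the highest or second highest Cha point in every panel, and the groups overlap in all 12.

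For 4 of the 13 listed pairs, both the main gene and its copy were measured, so their differences between groups could be compared directly. The gap between copy and main gene was taken on each array, which shows unequal change and not relative level. RpS28a differed by -0.01 and RpS28b by 0.11, RpL10Aa by 0.06 and RpL10Ab by 0.07, and RpL37-2 by -0.43 and RpL37-1 by -0.03. RpL10Aa was dim on all 10 arrays, so the gap of its pair cannot show whether the 2 copies changed alike. RpLP0-like differed by 0.31 and RpLP0 by 0.06, an excess of 0.26 in Cha. Exact 2-sided permutation tests of the 4 gaps gave p = 0.484, 0.897, 0.381 and 0.0635, and adjusted over the 4 pairs 0.646, 0.897, 0.646 and 0.254. The smallest p that 5 against 5 arrays allow is 0.00794. RpL37-2, known from the testis, was 7.57 on Cha array 3 and 5.71 to 6.82 on the others, so its interval (-1.15 to 0.29) was among the widest. For 7 further copies the main gene was not measured under its own symbol.

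Within each group, many of the ribosomal protein genes moved together by array, though not all. After group means were removed, the median pairwise Pearson correlation was 0.40 among the 29 core genes and 0.45 among the 39 not dim genes. Cha replicate 3 was the highest Cha array for 27 of the 41 genes, and Gad replicate 1 the highest Gad array for 33. They were the lowest array of their group for 3 and 0 genes. Of the genes that were not dim, 17.6% were highest in that Cha array and 24.9% in that Gad array. Both held for 24 of the 41 genes, and for 8.65% of the 8895 other genes that were not dim. The mean of the 29 core genes was 13.89 in Cha replicate 3 and 13.67 to 13.83 in the other Cha arrays, and 13.91 in Gad replicate 1 and 13.72 to 13.76 in the other Gad arrays. Paralogue copies deviated further, by 0.53 on average in Cha replicate 3 and 0.27 in Gad replicate 1. The median span of a core gene over the 10 arrays was 0.37, against a median difference size of 0.07 between the groups.

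**Figure D5:**
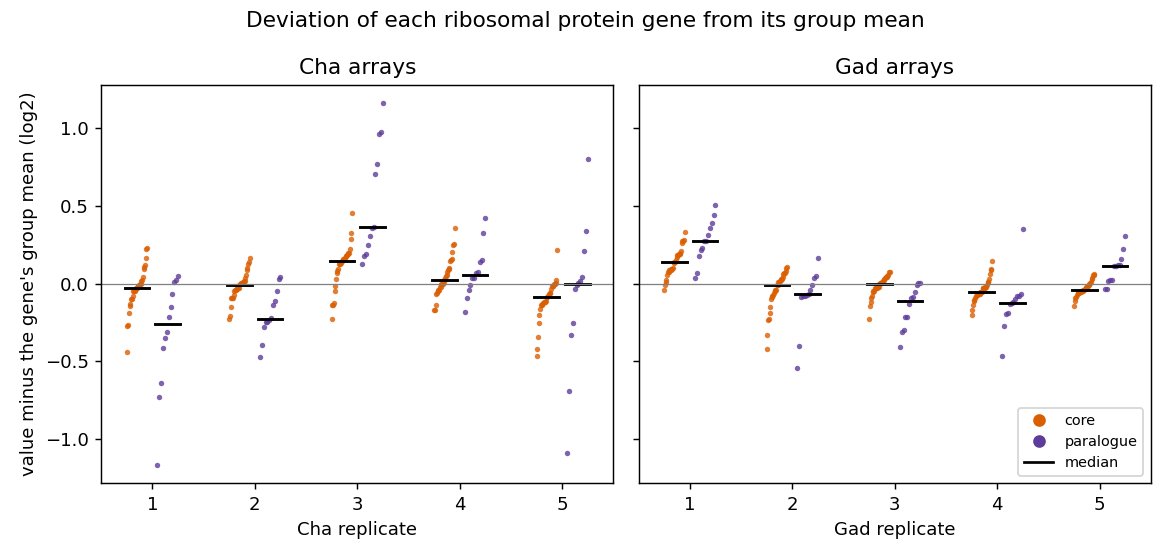
Value of each gene minus its group mean (log2, vertical axis) on each array (horizontal axis), for the 29 core genes (orange) and the 12 paralogue copies (purple), with the median of each as a bar. The bars lie above 0 for both classes in Cha replicate 3 and Gad replicate 1, the arrays that were highest for 27 and 33 of the 41 genes.

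In 1 of the RNA controls, both arrays were at the low end of their group, Cha replicate 3 by a small margin. The gap between the 3′ and 5′ control probe sets of 18S ribosomal RNA was smallest in Cha replicate 3 (1.93, against 2.06 to 3.25 in the other Cha arrays) and in Gad replicate 1 (2.15, against 2.89 to 3.71 in the other Gad arrays). The corresponding gaps for actin and GAPDH lay inside the range of the other arrays of each group. That for eIF-4a did so in Cha replicate 3 and was 5.13 in Gad replicate 1, as high as the next Gad array. The part of RNA quality in the pattern was not tested. Between the groups, the GAPDH gap was smaller in Cha (mean 2.91) than in Gad (3.41; exact permutation test, unadjusted p = 0.0317). Exact permutation tests of the other controls gave unadjusted p = 0.278 for 18S, 0.984 for actin and 0.214 for eIF-4a. The part of RNA quality in the differences between Cha and Gad, that of RpL27 included, was not tested. Under loess, Cha replicate 3 remained highest for 28 genes and Gad replicate 1 for 17. With both arrays left out, 1 gene passed toward Cha and 2 toward Gad, RpL22-like (-1.10) and RpS19b (-0.64), where 9.81% of all genes passed.

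By the likeness rule, the 5 other genes that followed the mean of the 39 not dim ribosomal protein genes most closely over the 10 arrays, after group means were removed, were SF2, ND-15, CG12384, LSm7 and bou. Their Pearson correlations lay between 0.955 and 0.968, as a description over arrays that share their normalization. SF2 encodes a splicing factor, ND-15 a subunit of respiratory complex I and LSm7 a protein that binds small nuclear RNA and messenger RNA. None of the 5 differed past the threshold between the groups (differences 0.01 to 0.20).

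Other probe sets were available for 4 of the genes. RpL3, which lies near the peptide-joining centre of the large subunit, differed by -0.16 on its brightest probe set, by -0.67 on a second (means 9.40 and 10.07, adjusted p = 0.0601 over all probe sets) and by 0.44 on another that was dim. RpS29 differed by -0.12 on the brightest and 0.40 on a second (11.10 and 10.70, adjusted p = 0.211). The other probe sets of RpS29, RpS30 and RpS7 were dim in both groups. Of the 41 chosen probe sets, 14 were of a type whose probes can match transcripts of more than 1 gene. Those of RpL3, RpL15, RpL32, RpL41, RpS12, RpS18, RpS21 and RpS30 were among them, and that of RpL27 was not.

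Genes that act with the ribosome were counted for comparison. Rack1, a scaffold protein of the small subunit, differed by -0.11 (adjusted p = 0.388). Of 34 measured genes in the list for ribosome assembly and the nucleolus, 2 passed toward Cha, nom (0.74) and Bka (0.61), and 1 toward Gad, Rrp4 of the RNA exosome (-0.60), with a median of 0.07. Of 13 growth and stress regulators, 3 passed toward Cha, the Myc partner gene Max (0.51), crc, the fly ATF4 (0.36), and Irbp18 (0.73), and 1 toward Gad, foxo (-0.64), whose Cha mean of 4.93 was close to the dim level. Their median was 0.18. In either direction, 8.82% of the assembly list and 30.8% of the regulators passed, against 18.5% of all genes.

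Translation factors bring messenger and transfer RNA to the ribosome and move them through it. Of 47 measured, 3 passed toward Cha and 6 toward Gad, a share of 19.1%, close to that of all genes. The 4 with the smallest p were eIF2Bepsilon, a subunit of the exchange factor for eIF2 (-0.56, SE 0.11), eIF3c (-0.41), the cap-binding repressor gene eIF4EHP (0.48) and eIF3d1 (-0.34). Among them were the subunits of eIF3, the complex that brings the initiator complex to the small subunit. This complex was singled out after its values were seen. All 13 subunits, second copies left out, had lower means in Cha (median -0.31), and 5 passed toward Gad: eIF3c, eIF3d1, eIF3m, eIF3k and eIF3i. Over all 11982 genes, 5153 had lower means in Cha and 10.2% passed toward Gad. The 11 small subunit core proteins on the same arrays had a median of -0.04 and 0 calls. The count of 5 depended on the setting, with 10 under loess, 3 with dim probe sets removed, and 2 under median centring or a trended prior. It was 2 without Cha replicate 2, 3 or 5, 3 without Gad replicate 4 and 1 without any other Gad replicate, and 0 with the arrays that share a letter code left out. The means of at least 12 of the 13 stayed lower in Cha in all of these. The share of all genes that passed varied too, from 18.5% in the main fit. It was 17.8% to 24.4% under loess, median centring, a trended prior or removal of dim probe sets. It was 14.3% to 17.6% without Cha replicate 2, 3 or 5, 16.9% without Gad replicate 4 and 11.5% to 13.9% without another Gad replicate. With the arrays that share a letter code left out, it was 8.8%.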

How the data were processed

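The authors' deposited values were log2 expression values made with RMA, per the submitters' processing notes (version not given in the sources used here). Because RMA equalises the distributions of the arrays, it would hide a change shared by most genes. Of 18769 probe sets without controls, 13647 had 1 symbol in the platform annotation, 402 several and 4720 none. The members had 47 probe sets, and each gene was represented by its brightest one.

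Differences are Cha minus Gad, computed in R 4.3.3 with limma 3.58.1 (2-sided moderated test without covariates), adjusted by Benjamini-Hochberg over 11982 genes with a threshold of 0.05, and tested on simulated data. The number of arrays limits the precision. The members and lists were chosen with earlier results of these data known. Named genes were those past the threshold, measured paralogue pairs, the 4 highest and 4 lowest, and up to 4 genes of each list; others were chosen after their values were seen. Alternatives covered normalization, dim probe sets, the variance prior, array weights, averaged probe sets, a stricter threshold of 0.01, replicate blocks and omitted arrays. Leaving out the arrays highest in most members was added after the data were seen.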

Additional observations from a re-analysis of the deposited data

Results flagged for a closer look

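In each group of 5 arrays, the highest or lowest value was compared with its nearest neighbour by Dixon's ratio, and 11 of 82 groups exceeded the critical ratio of 0.71, where chance flags about 1 in 20. Cha replicate 3 held 4 of the 11: RpL23 at 14.65, RpL37A at 14.52, RpS20 at 14.24 and RpS19b at 7.80, each above the other Cha arrays. Gad replicate 1 held 3, also at the top: RpL36A at 13.87, RpS30 at 13.60 and RpL7-like at 11.87. Gad replicate 2 held 3 at the bottom: RpLP0 at 13.94, RpL40 at 13.33 and RpL27 at 12.10. The last was RpS30 at 12.68 in Cha replicate 5. Genes on 1 array are not independent, so these values are no separate observations.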

How the results depend on the processing

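RpL27 passed the threshold under all 21 alternatives, with differences of 0.44 to 0.54 (adjusted p 0.00981 to 0.0197) when single arrays were left out, so the count toward Cha was 1 in each. The count toward Gad was 1 with a second quantile normalization and with loess (RpS21), and 1 with dim probe sets removed, the trended and robust prior and array weights (RpL22-like: -0.98, -0.98 and -1.02; adjusted p 0.0435, 0.048 and 0.0199). It ranged from 0 to 3 when single arrays were left out, with 3 without Cha replicate 3 and 0 otherwise, and was 2 without both arrays that were highest in most members. Cha replicate 3 held the highest Cha value of each of those 3 genes (RpS21, RpS19b and RpL22-like). Of all genes tested, 14.5% passed in either direction without Cha replicate 3 and 9.81% without both arrays. Under the 5 settings with a count of 1 toward Gad, 17.8% to 24.4% did. The count of unequal pairs ranged from 0 to 1, with 1 (RpLP0 and RpLP0-like) without Gad replicate 1. The median difference stayed between -0.06 and 0.04. Of 818 values of single genes, 10 passed only under an alternative and 2 moved by more than the replicate SD, RpS12 (-0.12 with loess) and RpS29 (0.09 with averaged probe sets). The causes were not tested. Signs of values that did not pass changed in up to 9 genes, with loess. Same-numbered arrays did not deviate together (correlations -0.43 to 0.04), which does not settle whether the numbers pair the samples. With the replicate number as a block, the count was 1 toward Cha, 0 toward Gad and 0 pairs, the median -0.01, and 0 eIF3 subunits passed. Of all genes, 9.29% passed in that fit.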
